A study of Mus musculus with 12 samples.

Results

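KPC cells, a mouse pancreatic ductal adenocarcinoma line, were compared 48 h after a single dose of 8 Gy ionising radiation with unirradiated KPC cells. The 6 KPC libraries, 3 per group, were picked by their labelled cell line and treatment from a series of 12, and every gene of the count table entered the comparison. The other 6 libraries, from the mouse bladder cancer line MB49 under the same 2 conditions, share the fit and serve below only to test whether a response differed between the lines. The groups are KPC control, KPC 8 Gy, MB49 control and MB49 8 Gy, all cultured in DMEM with serum and antibiotics, and the labels give the genotype of all 4 as WT. The culture time of the controls is not given, and the series title and protocol mention senescent cells and nanovesicles, whereas each library is labelled only as control or 8 Gy. Lines called KPC are commonly derived from mice in which a Cre recombinase active in the pancreas switches on engineered cancer alleles. The labels name no such allele, do not say whether the line is 1 clone, and do not say whether replicates are separate cultures, so the p-values measure the spread between these libraries, which may be technical.

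Ionising radiation breaks DNA, and the breaks activate the kinases ATM and ATR, which can stabilise the transcription factor p53 and hold cells before DNA replication or mitosis. Cells that pass mitosis with unrepaired breaks can form micronuclei, whose DNA can be sensed in the cytosol by cGAS and STING, a route to interferon production. Interferons act through JAK kinases and STAT transcription factors, which bind interferon-stimulated response elements (ISRE) and gamma-activated sites (GAS) in front of genes for antiviral defence and antigen presentation. Genes for mitosis are commonly controlled through a short element called the cell cycle genes homology region (CHR), often with CCAAT boxes nearby.

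Promoters of genes on which the results turn are shown first, since interferon-regulated and mitotic genes both rose, and were chosen for holding a match. Each sequence is the 250 bases before the annotated start, 5′ to 3′ on the gene's strand, from RefSeq on GRCm38.p6, with every match to the named motif on either strand in capitals. The motifs searched were GAAA, any 2 bases and GAAA for the ISRE core, TTCNNNGAA for GAS and TTTGAA for CHR, where N is any base. The first 3 have an ISRE core: Cxcl10 (a T cell attracting chemokine) at chr5:92348890-92349139 on the minus strand, Gbp2 (an interferon-inducible GTPase) at chr3:142620413-142620662 on the plus strand and B2m (the light chain of MHC class I) at chr2:122147437-122147686 on the plus strand. Irf1, a transcription factor of the interferon response, has a GAS match at chr11:53769764-53770013 on the plus strand. Cdk1, the kinase that drives entry into mitosis, at chr10:69352913-69353162 and Mki67, the proliferation antigen Ki-67, at chr7:135716380-135716629, both on the minus strand, hold 2 CHR matches each.
Cxcl10: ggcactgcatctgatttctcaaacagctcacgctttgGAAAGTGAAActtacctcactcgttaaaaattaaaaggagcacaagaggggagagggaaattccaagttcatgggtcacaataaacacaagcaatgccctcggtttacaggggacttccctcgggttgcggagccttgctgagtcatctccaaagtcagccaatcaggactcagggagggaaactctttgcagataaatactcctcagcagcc
Gbp2: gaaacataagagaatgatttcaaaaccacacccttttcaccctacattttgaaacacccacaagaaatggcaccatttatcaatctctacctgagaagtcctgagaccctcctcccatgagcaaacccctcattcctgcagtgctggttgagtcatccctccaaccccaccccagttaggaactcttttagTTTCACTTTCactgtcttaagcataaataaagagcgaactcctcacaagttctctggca
B2m: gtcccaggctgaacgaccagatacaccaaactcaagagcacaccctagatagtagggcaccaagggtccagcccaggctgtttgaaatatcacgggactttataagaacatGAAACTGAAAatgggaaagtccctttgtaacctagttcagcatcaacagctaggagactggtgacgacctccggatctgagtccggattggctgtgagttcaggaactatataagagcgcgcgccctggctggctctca
Irf1: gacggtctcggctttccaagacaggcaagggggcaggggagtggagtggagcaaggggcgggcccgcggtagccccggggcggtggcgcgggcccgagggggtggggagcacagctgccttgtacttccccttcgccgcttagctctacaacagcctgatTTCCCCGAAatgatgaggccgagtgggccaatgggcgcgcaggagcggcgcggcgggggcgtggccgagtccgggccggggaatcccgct
Cdk1: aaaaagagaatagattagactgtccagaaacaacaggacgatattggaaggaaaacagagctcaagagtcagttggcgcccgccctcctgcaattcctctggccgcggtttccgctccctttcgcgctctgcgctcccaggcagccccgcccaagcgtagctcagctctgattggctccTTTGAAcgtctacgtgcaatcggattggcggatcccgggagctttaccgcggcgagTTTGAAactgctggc
Mki67: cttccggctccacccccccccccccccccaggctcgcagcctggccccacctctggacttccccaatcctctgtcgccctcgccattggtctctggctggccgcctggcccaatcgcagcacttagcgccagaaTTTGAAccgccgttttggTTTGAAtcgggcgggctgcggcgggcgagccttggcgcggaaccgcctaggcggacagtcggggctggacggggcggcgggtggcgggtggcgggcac

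Over windows of 250 bases before to 50 after the start, 17.9% of all 32851 promoters in the table held a CHR match, against 26 of the 35 promoters (74.3%) found for 32 of the 40 tested G2 and mitosis genes. A CCAAT box, searched as CCAAT on both strands, was in 37.4% of all promoters and in 27 of these 35 (77.1%). All promoters here means those of 27025 gene symbols, with 10343 of the tested genes among them. The lists hold tested genes only, so the shares compare unlike sets. The ISRE core was in 3.44% of all promoters and in 5 of the 22 promoters (22.7%) found for 20 of the 23 tested MHC class I genes. GAS was in 8.3% of all promoters and in 6 of the 22 (27.3%) found for 19 of the 23 tested interferon receptor and JAK-STAT genes. In the MHC class I promoters GAS was found in 9.09% and a CCAAT box in 72.7%, and in the JAK-STAT promoters the ISRE core in 13.6%. Other leading genes had no match: the windows of Cxcl9, Cd274, Irf7, H2-K1, Psmb9 and Tap1 hold neither ISRE core nor GAS, that of Ccnb1 no CHR, and the window at the other listed start of Irf1 no GAS. In the sequences above only the named motif of each gene is marked. The windows of Gbp2 and B2m also hold 2 and 1 CHR matches. CHR was in 1 of the 22 MHC class I promoters (4.55%) and in 0 of the 22 JAK-STAT promoters. A match describes these letters only and shows no binding, and a missing match says only that these letters are not in the window.

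The KPC libraries held 21100153 to 26337928 estimated read counts. Levels are given as CPM (a gene's counts scaled to a common library total) after TMM scaling, which corrects for differences in library composition, and 14362 genes of 57180 passed the filter on low counts and were tested in edgeR's quasi-likelihood model. TMM factors were 1.07 to 1.14 in the controls and 0.829 to 0.876 after 8 Gy, and the 10 most abundant genes took 6.81% to 10.7% of counts in the controls and 10.1% to 10.2% after 8 Gy. CPM are shares of a library, so a change in RNA per cell or in the number of cells cannot be told apart from them. The control replicate 1 stood apart in ribosomal RNA (Rn18s-rs5, 5.11% of its counts against 0.202% to 0.547% in the other 5 KPC libraries), and counts are given with and without it where it matters. Correlations of log2 CPM over genes were 0.984 to 0.991 within a KPC group and 0.904 to 0.910 between the groups, a description over genes that share libraries.

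The label was checked against markers, summed as CPM of library totals without TMM. Pancreatic duct and adenocarcinoma markers summed to 2303 to 2539 CPM in the controls and 4073 to 4266 CPM after 8 Gy, with 6 of 25 at 0, and the epithelial adhesion gene Epcam had only 14 and 15 counts over the groups. Of 26 immune markers, 15 were at 0 in all KPC libraries, among them Ptprc (CD45), Cd3e, Itgam and Adgre1. Their sum was 40.4 to 44.3 CPM in the controls and 87.4 to 89.8 CPM after 8 Gy, mostly from Cd14, a co-receptor for bacterial lipopolysaccharide, at 39.7 and 81.9 CPM on the same scale. Of the 6 immune markers tested, 4 were higher and none lower. Beside Cd14 these were Cd79a, a B cell receptor chain, Csf1r, a macrophage growth factor receptor, with 8 counts over the controls and 98 after 8 Gy, and Mrc1, a macrophage mannose receptor, with 39 and 112. Their part in the results was not tested. Fibroblast and endothelial markers summed to 182 to 243 CPM and 73.2 to 85.3 CPM, with 7 of 19 at 0, and acinar and endocrine markers to 5.52 to 7.99 CPM and 1.44 to 1.89 CPM, with 13 of 20 at 0. The ductal keratin gene Krt19 was at 94.1, 79.5 and 68.4 CPM in the 3 controls and 411, 396 and 441 CPM after 8 Gy, and Krt8 at 363 and 1825 CPM on average. Pdx1, a transcription factor of pancreatic identity, was detected in every library, at 72.02, 79.6 and 78.6 CPM in the controls and 21.6, 20.1 and 23.6 CPM after 8 Gy.

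At an adjusted p under 0.05 (Benjamini-Hochberg over all tested genes), 9086 genes (63.3%) differed between irradiated and control KPC cells, 4490 higher (31.3%) and 4596 lower (32%). Of these, 2509 were at least 2-fold higher (17.5%) and 2514 at least 2-fold lower (17.5%). With so many genes called, a single call carries little, and each count of a list below is to be read against these shares. The scaling bears on the balance: on library totals without TMM the median of all genes moved from -0.01 to -0.39 on the log2 scale and the split became 3085 higher and 6621 lower. All changes below are relative to the TMM scale. Without control replicate 1, 4457 genes were higher and 4290 lower.

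**Figure D1:**
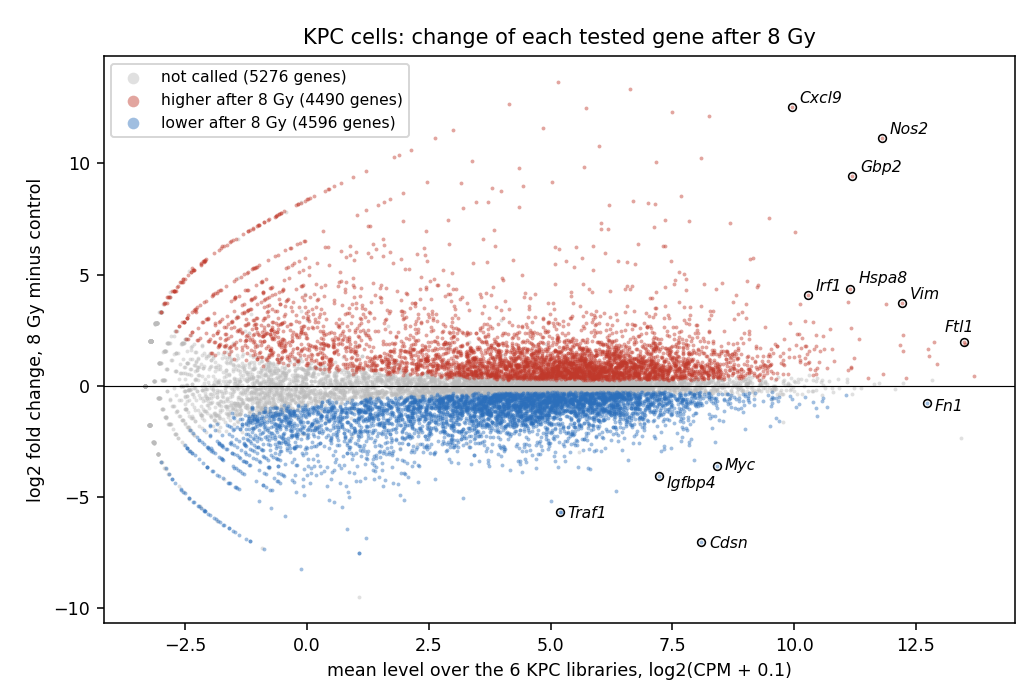
Each point is 1 of the 14362 tested genes in KPC cells, by its mean level over the 6 libraries (horizontal, log2 of CPM plus 0.1) and its log2 fold change, 8 Gy minus control (vertical), coloured by call. Named genes such as Nos2, Gbp2 and Cxcl9 lie far above 0 at high levels, while Cdsn, Myc and Igfbp4 lie below, and the 4490 higher and 4596 lower genes are nearly balanced.

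Interferon-regulated genes rose. All 17 tested interferon-inducible GTPases were higher after 8 Gy (median log2 fold change 7.45, all-gene median -0.01), as were 36 of 38 antiviral effectors (median 3.58), 20 of 23 genes for interferon receptors and JAK-STAT signalling (median 1.24) and 14 of 18 cytosolic nucleic acid sensors (median 2.59). Some members were near 0 in the controls, so a fall could hardly have been called for them. Over the 3 controls the GTPase genes Gbp10, Gbp4, Iigp1 and Tgtp1 had 1, 5, 8 and 10 counts, and the antiviral Mx1 had 4. Irf1, whose promoter holds the GAS match shown above, was at 133, 134 and 145 CPM in the 3 controls and 2395, 2317 and 2333 CPM in the 3 irradiated libraries. No control library came near an irradiated one, and the log2 fold change was 4.10 ± 0.13 (SE; adjusted p = 6.29e-14). Irf7, which amplifies interferon production, rose 23.1-fold, and Stat2 and Irf9, which act in the transcription factor complex of the type I interferon response, rose 11.6-fold and 2.12-fold. The feedback inhibitors Socs1 and Usp18 rose with them, by 5.22 ± 0.31 and 3.51 ± 0.15 on the log2 scale. In the other direction, Irf3, which acts upstream of interferon production, fell from 38.9 to 19.1 CPM, and Pias1, an inhibitor of STAT signalling, fell from 28.3 to 21.99 CPM, a call lost without the low-count filter. The interferon gamma receptor gene Ifngr1 was at 41.3 and 45.6 CPM and did not pass the test (adjusted p = 0.232).

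None of the 10 interferon genes examined reached the filter. Ifnb1 had 1 count summed over the 3 controls and 10 over the 3 irradiated libraries, Ifnl2 had 0 and 1, and the other 8, with Ifng among them, had 0 in all 6 libraries. A sum of 0 over the 3 libraries of a group is read as under 3 counts in all. Ratios of summed counts below are corrected for the library sizes of the groups after TMM. The sensors were unequal. Zbp1, which binds left-handed nucleic acid and can start necroptosis, was at 2.66, 2.32 and 2.98 CPM in the controls and 450.1, 455 and 455 CPM after 8 Gy, and the RIG-I-like receptor Dhx58 rose 15.5-fold. Cgas itself fell, from 11.9, 11.8 and 11.2 CPM to 3.97, 4.03 and 5.55 CPM (log2 fold change -1.37 ± 0.23, adjusted p = 5.43e-05), while its downstream adaptor Sting1 rose from 32.1 to 195 CPM. Adar, which edits double-stranded RNA, was at 147 and 169 CPM with overlapping groups and was not called.

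Gbp2, one of the GTPases, with the ISRE core shown above, was at 6.199, 7.34 and 6.82 CPM in the controls and 4862, 4939 and 4184 CPM after 8 Gy, a difference of 9.42 ± 0.20 on the log2 scale (adjusted p = 2.16e-15). No control library came near an irradiated one. Gbp10 had 1 count over all controls and 12112 after 8 Gy, a ratio of 15000 after that correction (exact 95% interval from counting error 2690 to 593000). Tgtp1, a T cell specific GTPase, rose from 0.137 to 609 CPM. Members of these families are near-identical copies, and no source used here says how reads shared between copies were counted, so single members are uncertain. Ifit3, an antiviral RNA-binding cofactor, was at 7.95, 7.897 and 6.78 CPM and then 1483, 1568 and 1222 CPM, and the ubiquitin-like Isg15 rose 11.7-fold. Mx1, an antiviral GTPase, rose from 0.0513 to 27.7 CPM. The exceptions were Ifi27, which fell from 215, 192 and 151 CPM in the controls to 55.4, 58.1 and 56.5 CPM after 8 Gy, and Eif2ak2, the kinase PKR, which was at 22.5 and 19.997 CPM and was not called. In MB49 cells Ifi27 rose instead, from 32.6 to 140.1 CPM, and the difference between the lines passed the interaction test (-3.82 ± 0.20, log2, adjusted p = 5.59e-10).

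Nos2, which makes nitric oxide in macrophages and in epithelial cells exposed to cytokines, was at 2.75, 2.66 and 4.004 CPM in the controls and 7189.8, 6482 and 7743 CPM after 8 Gy. The groups lay far apart, and the log2 fold change was 11.15 ± 0.27 (adjusted p = 2.74e-15). Other genes commonly seen in activated macrophages came up from near 0. Mpeg1, a pore-forming protein, had 1 count over the controls and 6478 after 8 Gy (ratio 8030, interval 1440 to 317000). Ido1, which degrades tryptophan, had 1 and 3512 counts (ratio 4350, interval 781 to 172000), and Acod1, which makes itaconate, had 3 and 2473 (ratio 1020, interval 349 to 4960). Cd68, a lysosomal glycoprotein often used as a macrophage marker, rose from 2.61 ± 0.261 to 219 ± 10.1 CPM (SD, n = 3 each). The pan-leukocyte marker Ptprc and the macrophage markers Itgam and Adgre1 were at 0 in all 6 libraries, while Csf1r and Mrc1 rose from low counts, as given above.

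**Figure D2:**
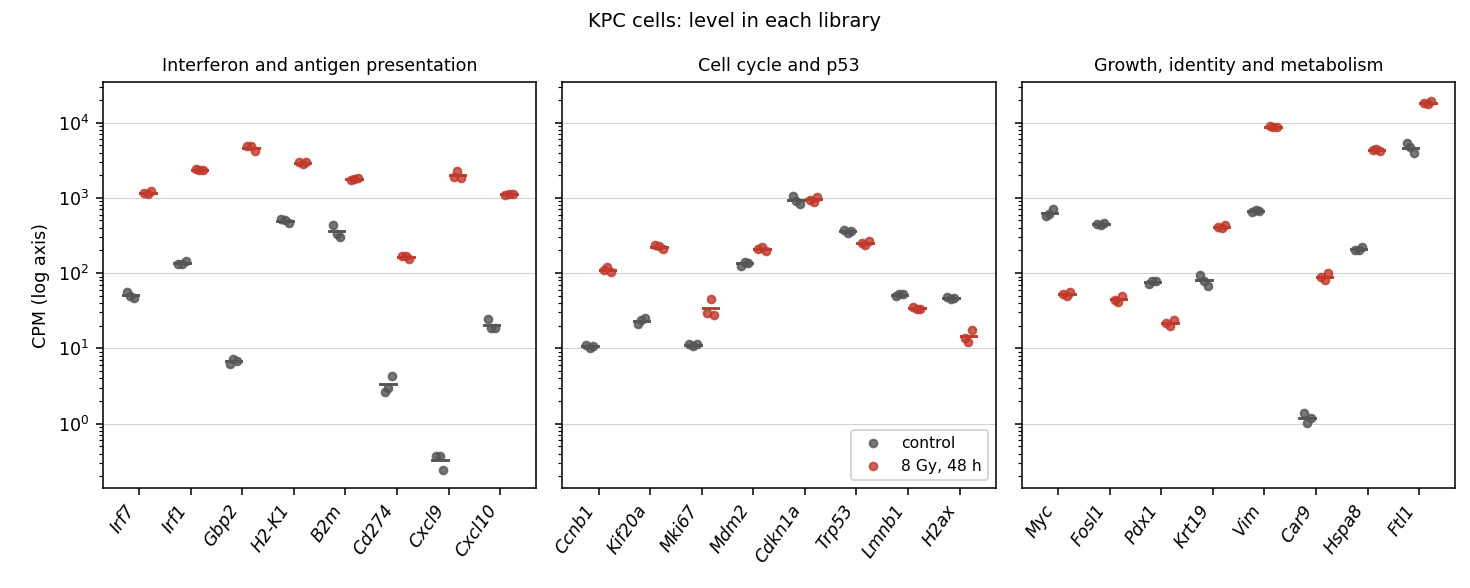
CPM on a log axis for 24 genes in each of the 3 control (grey) and 3 irradiated (red) KPC libraries, with bars at the means. Gbp2, Cd274, Cxcl9 and Car9 separate by well over 10-fold, Cdkn1a overlaps between the groups, and Myc, Fosl1, Pdx1 and H2ax lie lower after 8 Gy.

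Genes of antigen presentation rose. In the MHC class I list 22 of 23 tested genes were higher and none lower (median 2.56), and all 8 class II genes were higher (median 5.89). Among the class II genes, Ciita, Ctss, H2-Eb1 and H2-Aa had 0 or 1 counts over the controls, so a fall could not have been called. H2-Eb1 and H2-Aa, which encode class II chains, reached only 3.86 and 1.09 CPM after 8 Gy. The heavy chain gene H2-K1 was at 525, 507 and 463 CPM in the controls and 2983, 2788 and 3023 CPM after 8 Gy. B2m, with the ISRE core shown above, was at 439, 334 and 299 CPM and 1739, 1754 and 1841 CPM without overlap. The log2 fold changes were 2.56 ± 0.14 and 2.32 ± 0.17. The immunoproteasome subunits, which cut peptides for class I, rose more: Psmb9 76.7-fold, Psmb8 35.1-fold and Psmb10 23.9-fold. The peptide transporter Tap1 rose 13.5-fold and the class I transactivator Nlrc5 2.32-fold. Ciita, the master regulator of class II genes, had 0 counts in the 3 controls and 2120 after 8 Gy, at least 876-fold higher with the controls set at 3 counts in all and library sizes corrected for. Cd74, the class II invariant chain, was at 33.5, 28.7 and 27.4 CPM and then 161, 171 and 189.5 CPM. In MB49 cells Cd74 went from 134 to 86.9 CPM, and the responses of the lines differed by 3.16 ± 0.18 (adjusted p = 1.47e-09).

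Among ligands that immune cells read, 11 of 15 tested genes were higher and 2 lower (median 0.95). Cd274, which encodes PD-L1, was at 2.66, 2.96 and 4.33 CPM in the controls and 168, 169 and 154 CPM after 8 Gy, with no overlap and a log2 fold change of 5.62 ± 0.16 (adjusted p = 2.12e-14). Lgals9, a galectin that binds TIM-3, rose 10.2-fold and Tnfsf9, the ligand of the T cell costimulator 4-1BB, rose 5.16-fold. Cd276, the B7-H3 checkpoint ligand, fell from 93.2 to 58.4 CPM. Cd47, which restrains phagocytosis, was at 220.3 and 265 CPM and was not called (adjusted p = 0.0629), but was called higher by DESeq2 (adjusted p = 0.00746), with the 6 KPC libraries alone (0.032) and without control replicate 1 (0.0325).

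All 6 tested T cell attracting chemokines were higher (median 3.72). The other 3 of the 9 listed did not pass the filter: Ccl19 had 0 and 2 counts over the groups, and Ccl21a and Ccl22 had 0 in both. Cxcl9 was at 0.374, 0.374 and 0.245 CPM in the controls and 1906, 2243 and 1815 CPM after 8 Gy, and Cxcl10, the other main CXCR3 ligand, was at 24.9, 18.5 and 18.5 CPM and 1089, 1121 and 1133 CPM. Both sets of irradiated libraries lie clear of the controls, by 12.52 ± 0.30 and 5.76 ± 0.15 on the log2 scale. Ccl5, which draws T cells and monocytes, rose 12.1-fold. Of 23 tested myeloid chemokines and cytokines, 15 were higher and 4 lower (median 1.42), and the interaction test found 15 of them with a higher response in KPC than in MB49 and 2 with a lower one, against 20.9% and 22% of all genes. Ccl2, the main monocyte chemokine, rose in KPC cells from 0.109 to 2.85 CPM and fell in MB49 cells from 223 to 112 CPM (difference 5.67 ± 0.47, adjusted p = 9.31e-08). Il15, a growth factor of NK and memory T cells, rose from 0.704 to 8.35 CPM. Lif, Areg and Tslp, a cytokine, an EGF receptor ligand and an alarmin of epithelia, fell, with log2 fold changes of -0.68, -0.58 and -1.79.

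Complement and acute phase genes followed the same direction, with 14 of 15 tested genes higher and none lower (median 4.65). C4b rose from 0.0683 to 360.2 CPM, Cfb, a factor of the alternative pathway, from 0.446 to 546 CPM, and C3, on which the pathways converge, from 29.1 to 706 CPM. Serpina3f, a protease inhibitor from a cluster of close copies, had 0 counts in the controls and 4331 after 8 Gy, at least 1790-fold higher by the same reading. Serpina3g also had 0 counts over the controls and C4b had 5, so a fall could hardly have been called for these genes. NF-kB genes were mixed, with 12 of 24 higher and 6 lower (median 0.30, -0.08 on library totals). The subunits Rela and Relb fell, with log2 fold changes of -0.64 and -1.08, as did the inhibitor Nfkbie (-2.09). Traf1, an adaptor of TNF receptors and a known NF-kB target, was at 78.3, 70.5 and 64.7 CPM in the controls and 1.74, 1.301 and 1.14 CPM after 8 Gy, a 50.7-fold lower level. The adhesion molecule targets Vcam1 and Icam1 went the other way, rising 4.27-fold and 16.3-fold, and Icam1 fell in MB49 cells (difference between the lines 4.87 ± 0.26, adjusted p = 6.68e-10).

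Genes of the p53 list showed no common direction. Of 37 tested members 16 were higher, 6 lower and 15 not called, with a median of 0.16 that turned to -0.22 on library totals, where 10 were higher and 15 lower. Cdkn1a, the p21 inhibitor of cyclin-dependent kinases and a classical p53 target, was at 1043, 921 and 826 CPM in the controls and 946, 889 and 1029.9 CPM after 8 Gy. The groups overlapped and the difference was 0.04 ± 0.13 (adjusted p = 0.823), and on library totals it was called lower (-0.35, adjusted p = 0.01). Mdm2, the ubiquitin ligase that holds p53 down, was at 125, 142 and 137 CPM and 207, 221 and 194 CPM, a log2 fold change of 0.62 ± 0.12 (adjusted p = 0.000293) that lost its call on library totals (adjusted p = 0.145). Trp53 itself fell from 371, 341 and 359.9 CPM to 248, 237 and 271 CPM. Gdf15, a stress cytokine, and Trp53inp1 were the clearest rises, 4.39-fold and 3.64-fold. Rrm2b, which supplies nucleotides for repair, Tigar, which limits glycolysis, and Sesn2 fell, to 3.17, 5.73 and 61.01 CPM from 12.9, 19.2 and 173 CPM. The interaction test found 20 of the 37 with a lower response in KPC than in MB49 and 4 with a higher one (22% and 20.9% of all genes).

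Death genes split by type. In the list of lytic death genes 10 of 12 were higher and 1 lower (median 2.34). Casp1, the inflammasome caspase, rose from 2.34 to 26.98 CPM, and Gsdme, a gasdermin cut by caspase 3, fell from 1.39 to 0.247 CPM. Of 30 tested BCL2 family, caspase and IAP genes, 13 were higher and 6 lower (median 0.25, -0.14 on library totals). The effector Bak1 rose 3.36-fold and the BH3-only gene Bmf fell 4.75-fold, whereas Bax and Bbc3 (PUMA), both p53 targets, were at 321 and 263 CPM and at 149 and 166 CPM and were not called. Tnfsf10, the death ligand TRAIL, rose from 0.0661 to 3.64 CPM.

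Mitotic genes were higher after 8 Gy. Of the 40 genes in the G2 and mitosis list 38 were higher, none lower and 2 not called (Anln and Mad2l1), with a median of 1.63 that was 1.25 on library totals, where 34 were higher and none lower. Without control replicate 1, 39 were higher and none lower. Ccnb1, the cyclin that partners Cdk1, was at 11.03, 10.2 and 10.8 CPM in the controls and 112, 119 and 102 CPM after 8 Gy. The irradiated level was 10.4-fold higher, without overlap (log2 fold change 3.38 ± 0.12, adjusted p = 3.03e-13). Kif20a, a kinesin of cytokinesis, was at 21.4, 23.6 and 25.4 CPM and 237, 226 and 210.01 CPM, and Ccna2 and Ccnb2 rose 8.68-fold and 7.82-fold. Cdk1 and Mki67, whose promoters with 2 CHR matches each are shown above, rose less: Cdk1 from 84.5 ± 16.4 to 148 ± 10.3 CPM (SD, n = 3) and Mki67 from 11.4, 10.8 and 11.3 CPM to 29.1, 45.4 and 28.1 CPM, where the irradiated replicate 2 was highest. In MB49 cells, where 66.9% of all genes were called (35.3% higher and 31.6% lower), 16 of the 40 were higher and 10 lower (median 0.09), and the interaction test found 38 with a higher response in KPC and none with a lower one. Ccnb1 differed by 3.08 ± 0.16 between the lines (adjusted p = 4.5e-10), from 55.9 to 68.8 CPM in MB49.

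Genes of the G1/S transition and DNA replication were less uniform, with 25 of 46 higher and 9 lower (median 0.38), and on library totals 17 higher and 13 lower. The cyclin Ccne1, the polymerase subunit Pold1 and the ligase Lig1 rose 3.71-fold, 3.703-fold and 3.51-fold. The kinase Cdk4 fell from 514 to 236 CPM, the flap nuclease Fen1 from 61.5 to 27.8 CPM, and E2f2 from 11.2 to 4.202 CPM. The cyclin Ccnd1 and the helicase subunit Mcm3 were at 795 and 684 CPM and at 124 and 139.6 CPM, and neither was called. Of 44 tested genes for DNA damage signalling and repair, 21 were higher and 10 lower (median 0.34, -0.04 on library totals). The largest rises of the list included Rad54l, of homologous recombination, up 5.28-fold, Fancd2 3.71-fold and Brca1 3.13-fold. Prkdc, the catalytic kinase of non-homologous end joining, fell from 4.49, 6.66 and 7.35 CPM to 1.59, 2.21 and 1.37 CPM, and H2ax, the histone variant that is phosphorylated at breaks, from 48.2, 45.2 and 46.7 CPM to 13.7, 12.2 and 17.7 CPM.

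Genes often used to mark senescence gave no single direction. Of 19 tested, 8 were higher, 4 lower and 7 not called, and on library totals 4 were higher and 6 lower. Another 5 of the 24 listed genes did not pass the filter, so their change was not tested. Among them were Cdkn2a, with 4 counts over the controls and 8 after 8 Gy, and Cdkn2b, with 2 and 8. Lmnb1, the lamin lost in many senescent cells, fell modestly, from 50.1, 52.1 and 52.4 CPM to 35.4, 33.2 and 33.1 CPM (log2 fold change -0.60 ± 0.12, adjusted p = 0.000206), while Lmna rose 2.44-fold. Hmgb1, a chromatin protein released by senescent cells, fell from 147 to 73.04 CPM. Hmgb2, a related chromatin protein of the list, rose from 39.95 to 67.8 CPM (adjusted p = 0.00357). The protease inhibitor Timp1, also listed, fell from 142 to 114 CPM (adjusted p = 0.0464). Cdkn2d (p19INK4d) rose 3.11-fold and Glb1, the lysosomal beta-galactosidase, rose from 59.1 to 107 CPM. Igfbp4, an insulin-like growth factor binding protein, fell in KPC cells from 323, 263 and 264 CPM to 17.8, 15.9 and 16.7 CPM. In MB49 cells Igfbp4 rose from 316 to 683 CPM, and the responses differed by -5.19 ± 0.21 (adjusted p = 2.76e-11).

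**Figure D3:**
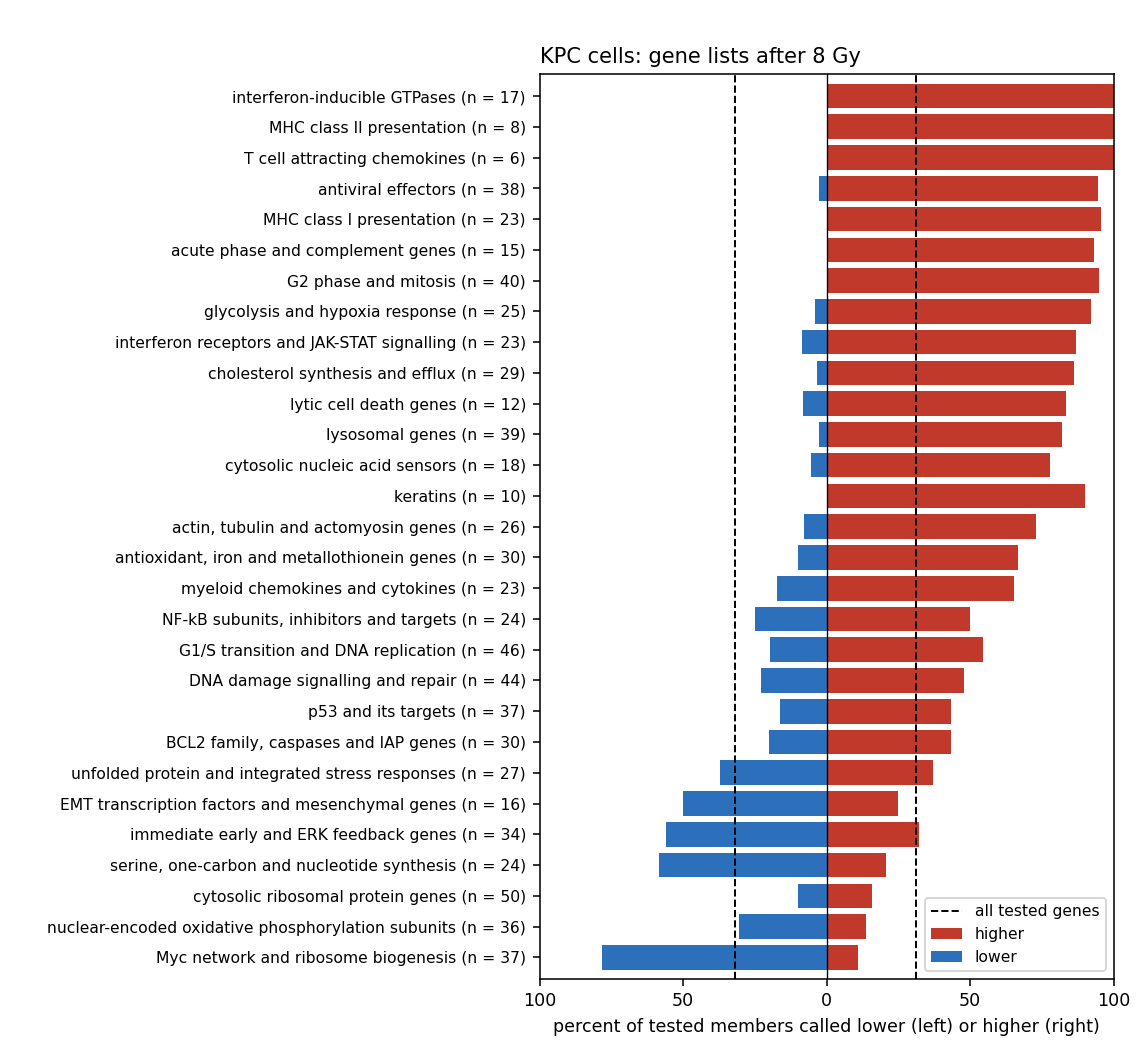
For 29 gene lists in KPC cells, bars give the percent of tested members called higher (red, right) or lower (blue, left) after 8 Gy, with dashed lines at the shares over all tested genes, 31.3% higher and 32% lower. Every tested member is higher in the GTPase, MHC class II and T cell chemokine lists, and 29 of 37 members are lower in the Myc and ribosome biogenesis list. Listed genes that did not pass the filter, such as 3 of 9 T cell chemokines, are left out.

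Immediate early genes and genes of the Myc network were mostly lower. Of 34 immediate early and ERK feedback genes 19 were lower and 11 higher (median -0.70), and of 37 genes of the Myc network and ribosome biogenesis 29 were lower and 4 higher (median -0.98). Myc, a driver of growth and ribosome production, was at 582, 613 and 701 CPM in the controls and 52.2, 49.3 and 56.05 CPM after 8 Gy. Its irradiated level was 12.04-fold lower with no overlap (log2 fold change -3.59 ± 0.15, adjusted p = 1.29e-12). Polr1b, a subunit of RNA polymerase I, which transcribes ribosomal RNA, fell 7.85-fold, the assembly factor Rrs1 7.39-fold and the snoRNP protein Gar1 7.08-fold. Mxd1, an antagonist of Myc, rose 3.39-fold. Fosl1, an AP-1 subunit downstream of ERK, was at 456, 432 and 462 CPM and then 43.9, 41.7 and 50.3 CPM, and the EGF receptor ligand Hbegf fell 4.82-fold. Of 10 tested genes for the EGF receptor family and its ligands 5 were lower and 2 higher, and on library totals 7 were lower and none higher. Fos was an exception: it rose from 3.22 to 12.7 CPM in KPC cells and fell in MB49 cells (difference 2.52 ± 0.19, adjusted p = 3.49e-08). Ccn2, a target of the YAP coactivator, also differed, rising 5.24-fold in KPC cells and falling in MB49 cells (difference 7.81 ± 0.42, adjusted p = 5.59e-10).

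Genes for the ribosome itself and for respiration did not move as a block in KPC cells. Among 50 cytosolic ribosomal protein genes 8 were higher, 5 lower and 37 not called (median -0.02), and on library totals 3 were higher and 24 lower. Without control replicate 1, 10 were higher and 2 lower. Rpl6 rose from 634 to 1896 CPM and Rpl5 fell from 27.8 to 16.1 CPM, while Rplp0, not called here but called higher by DESeq2 (adjusted p = 0.0374), was at 6565 and 7902 CPM. These genes have many processed copies in the genome, so counts of single members are uncertain. In MB49 cells 49 of the 50 were higher (median 1.31), and the interaction test found 46 with a lower response in KPC. Of 36 nuclear genes for oxidative phosphorylation 5 were higher and 11 lower (median -0.05), against 33 higher and none lower in MB49, with 28 differing by the interaction test. The lower count in KPC was 5 without control replicate 1 and 17 on library totals. Mitochondrially encoded genes were uneven: mt-Co1 was at 3146, 2328 and 1887 CPM in the controls and 5965, 8173 and 7569.5 CPM after 8 Gy, and mt-Nd1 at 303, 254 and 158 CPM and 66.7, 95.98 and 92.3 CPM.

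Glycolysis and the hypoxia response rose, with 23 of 25 tested genes higher and 1 lower (median 1.72). Car9, a carbonic anhydrase induced by hypoxia, was at 1.37, 1.01 and 1.18 CPM in the controls and 88.7, 81.9 and 99.7 CPM after 8 Gy, and Pfkl, the liver form of phosphofructokinase, at 67.2, 66.95 and 66.5 CPM and 543, 504 and 572 CPM. Both groups of libraries were tight and far apart. Aldoa rose 6.04-fold, Gapdh 3.18-fold and Pkm 2.57-fold. Egln3, a hydroxylase that is itself induced by hypoxia, fell (log2 fold change -0.46 ± 0.11), and the angiogenic factor Vegfa was at 208 and 206 CPM and was not called. The response was higher in KPC than in MB49 for 20 of the 25 genes and lower for 2, with Car9 differing by 5.57 ± 0.23 and Pfkl by 3.08 ± 0.18 (adjusted p = 2.76e-11 and 2.24e-09).

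Biosynthesis was divided. Of 24 genes for serine, one-carbon and nucleotide synthesis 14 were lower and 5 higher (median -0.40). Pycr1, which makes proline, fell 4.52-fold, and Umps and Gart, of pyrimidine and purine synthesis, fell 2.97-fold and 2.95-fold. Mthfd1l, of mitochondrial one-carbon metabolism, rose 3.22-fold in KPC cells and fell in MB49 cells (difference 1.99 ± 0.16, adjusted p = 7.62e-08). Of 29 genes for cholesterol synthesis and efflux 25 were higher and 1 lower (median 0.92), among them Nsdhl (9.39-fold), Insig1 (8.04-fold) and Fdft1 (6.34-fold), whereas the epoxidase Sqle was at 181 and 180.2 CPM. Of 39 lysosomal genes 32 were higher and 1, Gusb, was lower (median 0.94). The alpha-galactosidase gene Gla was at 16.1, 16.2 and 14.7 CPM and then 109, 118 and 107 CPM, and Npc2, a lysosomal sterol carrier, rose 4.74-fold.

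Both ferritin genes rose. On a scale that divides counts by gene length (TPM), Ftl1 and Fth1, the ferritin chains, had the highest levels of all tested genes after 8 Gy. Their levels were 30053 and 20199.6, against 9848 and 6732 in the controls. In CPM Ftl1 was at 5389, 4685 and 3893 in the controls and 18089, 17501 and 19490.3 after 8 Gy. All 3 irradiated libraries held over 3 times the level of any control. Ferritin belongs to a list of antioxidant, iron and metallothionein genes, of which 20 of 30 were higher and 3 lower (median 1.13). Hmox1, which frees iron from heme, rose 6.9996-fold, Gclm, of glutathione synthesis, 9.09-fold and the quinone reductase Nqo1 45.2-fold, and Nfe2l2, the NRF2 factor that controls them, fell (log2 fold change -0.42 ± 0.11). Of 14 heat shock genes 8 were higher and 1 lower (median 0.55), and on library totals 7 and 4. Hspa8, the constitutive HSC70, was at 206, 205 and 221 CPM in the controls and 4379, 4464 and 4190.1 CPM after 8 Gy, and Hsp90ab1 rose 4.88-fold, while the inducible Hsp90aa1 was at 167 and 191 CPM and was not called. Hspa1a, an inducible HSP70 gene, rose from 0.498 CPM in the controls to 3.59 CPM after 8 Gy. Integrated stress and unfolded protein genes were split 10 and 10 of 27 (9 higher and 14 lower on library totals), with Chac1 and Trib3, both ATF4 targets, down 5.796-fold and 4.93-fold and the disulfide isomerase Pdia4 up 2.77-fold.

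Structure and identity changed as well. Of 26 actin, tubulin and actomyosin genes 19 were higher and 2 lower (median 0.96). Vim, the intermediate filament of mesenchymal cells, was at 653, 688 and 668 CPM in the controls and 8912, 8688 and 8704 CPM after 8 Gy, Actg1 at 547, 509 and 573 CPM and 6890.4, 6874 and 7230.1 CPM, and Tubb5 rose 13.6-fold. None of these groups overlapped. Ftl1, Fth1, Hspa8, Actg1 and Tubb5 have close copies elsewhere in the genome, and their values carry that uncertainty. In MB49 cells Actg1 fell (difference between the lines 4.66 ± 0.19, adjusted p = 2.76e-11), and 19 of the 26 genes had a higher response in KPC and none a lower one. Epithelial keratins rose together, 9 of 10 tested and none lower (median 2.35), with Krt19 up 5.15-fold and Krt16, a keratin of stressed epithelia, from 0.0806 to 42.8 CPM. Among transcription factors of pancreatic duct and progenitor cells, Pdx1 fell 3.53-fold and Foxa2 2.17-fold, and Sox9 was at 130.2 and 134 CPM and was not called. Of 16 EMT transcription factors and mesenchymal genes 8 were lower and 4 higher (median -0.60). Vim, given above, is a member of this list and not of the actin and tubulin list. It was the largest rise among the 16, with a log2 fold change of 3.71. The matrix protein Fn1 was at 6295, 8315 and 11134 CPM and 5175, 4339.5 and 5332 CPM, and Twist2 fell from 1.17 to 0.06704 CPM in KPC cells and rose in MB49 cells (difference -4.56 ± 0.59, adjusted p = 1.32e-05).

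Several of the largest falls were in genes of no list. Cdsn, corneodesmosin, an adhesive protein of cornified skin, was at 543, 548 and 531 CPM in the controls and 4.47, 3.69 and 4.35 CPM after 8 Gy. The groups did not overlap (log2 fold change -7.02 ± 0.16, adjusted p = 2.16e-15). Car6, a secreted carbonic anhydrase, fell 50.7-fold from 73.1 CPM. Ppp1r10, a nuclear regulator of protein phosphatase 1, fell 26.5-fold, Soat2, which esterifies cholesterol, 13.1-fold, and the ubiquitin ligase adaptor Kctd11 12.5-fold.

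**Figure D4:**
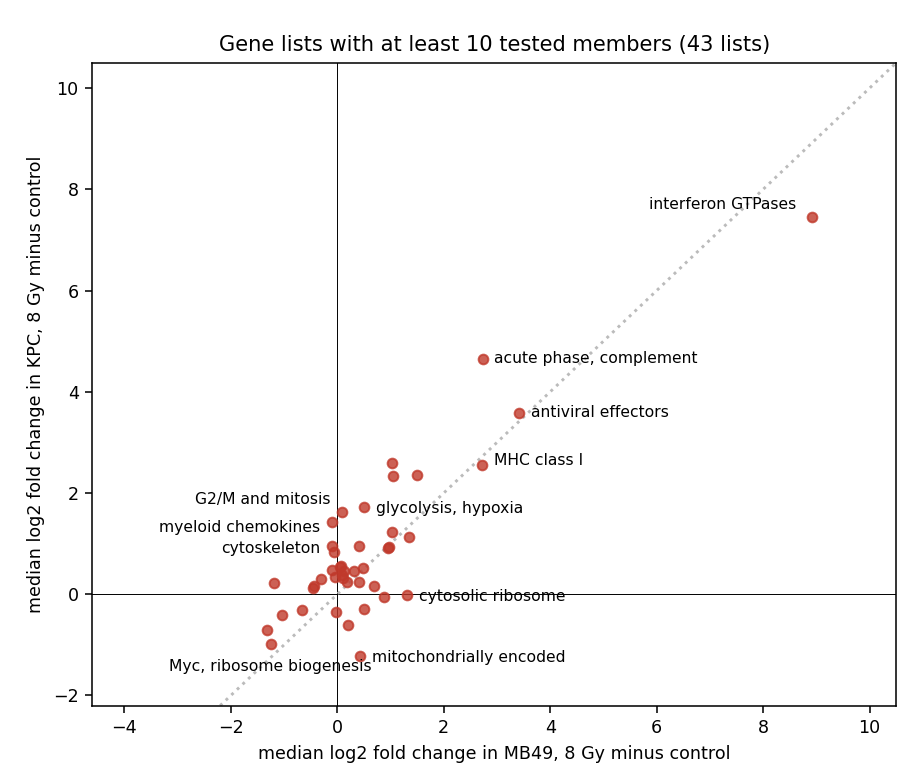
Each point is 1 of 43 gene lists with at least 10 tested members, by its median log2 fold change after 8 Gy in MB49 (horizontal) and KPC cells (vertical), with equality dotted. Antiviral effectors and MHC class I lie near the line, G2 and mitosis lies at 0.09 in MB49 and 1.63 in KPC, and the cytosolic ribosome at 1.31 and -0.02.

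Over all genes, the KPC and MB49 responses differed by the interaction test in 6162 genes (42.9%), 3002 with a higher response in KPC and 3160 with a lower one. Of the genes called in both lines, 5766 moved in the same direction and 891 in opposite directions. Nos2 rose in both, and more in KPC (difference 6.45 ± 0.28, adjusted p = 4.9e-11). In some interferon lists differences ran both ways: of 38 antiviral effectors 13 responded more and 10 less in KPC, and of 23 MHC class I genes 6 more and 8 less. Of 23 interferon receptor and JAK-STAT genes 8 responded more and 4 less. Other lists leaned to 1 side: of 18 nucleic acid sensors 11 responded more and 2 less. Of 17 interferon-inducible GTPases 2 responded more and 8 less, and of 8 class II genes 5 more and 0 less. The shares over all genes were 20.9% more and 22% less.

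The response of KPC cells varied with the number of exons of a gene. Of 11674 tested genes of any type at 1 CPM or more on average, 10917 (93.5%) had a protein-coding transcript in GENCODE vM21. These were sorted by the exons of their longest such transcript. The median log2 fold change was -0.98 in 233 genes with 1 exon, of which 58.8% were lower and 12.4% higher, and -0.40 in 476 genes with 2 exons. It was -0.24, -0.07 and 0.15 in genes with 3 to 4, 5 to 8 and 9 to 15 exons. In genes with 16 or more it was 0.16, with 40% higher and 26.7% lower. In MB49 cells the medians over the same classes were -0.50, -0.22, 0.19, 0.14, 0.04 and -0.09. Genes are not independent replicates, so this is a description. Examples with 1 exon were Frat1, a Wnt pathway gene, at 6.95, 7.78 and 8.01 CPM in the controls and 0.198, 0.2602 and 0.172 CPM after 8 Gy, and the tRNA-modifying enzyme gene Trmt12 at 10.3, 12.1 and 12.1 CPM and 0.397, 0.998 and 0.458 CPM. Jund, an AP-1 subunit with 1 exon, was at 332 and 335 CPM and was not called.

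**Figure D5:**
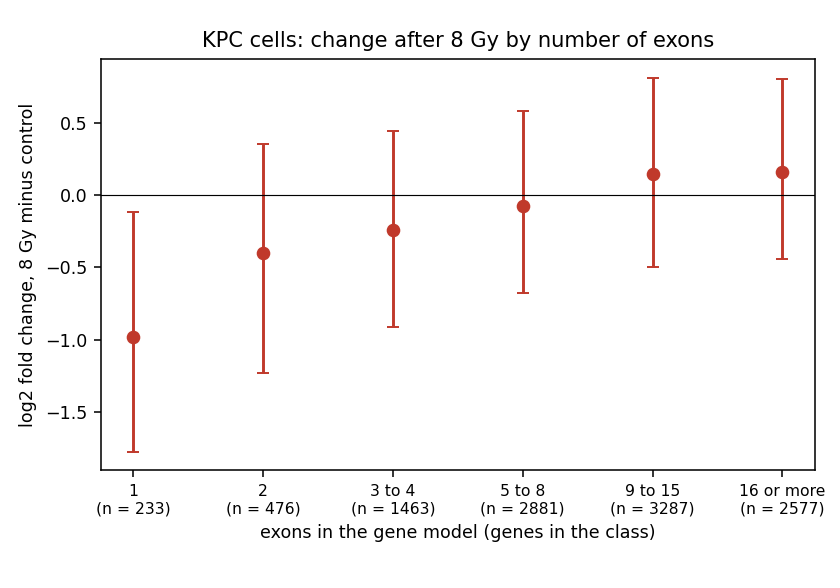
Median log2 fold change in KPC cells, 8 Gy minus control (points), with the 25th to 75th percentiles of genes (bars), by the number of exons in the gene model. The median goes from -0.98 in genes with 1 exon to 0.16 in genes with 16 or more.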

How the data were processed

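The deposited table holds the authors' estimated counts per gene for 12 mouse cell line libraries, in part not whole, and a gene length in bases. Per the submitters' processing notes, fastp, HISAT2, StringTie and the build GRCm39 were used, and per the labels' protocols the libraries were made with a stranded mRNA kit. No source used here names the counting program, its strand setting or its treatment of shared reads. The authors' group means were not used.

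Estimated counts were rounded to whole numbers. Genes passing filterByExpr (14362 of 57180 rows, of which 525 had no symbol) were scaled by TMM and fitted in edgeR 4.0.16 (R 4.3.3, robust quasi-likelihood, 12 libraries, 1 coefficient per group, 8 residual degrees of freedom). Contrasts were 8 Gy minus control in KPC cells, and that minus the same contrast in MB49 cells, with genes called where the p-value adjusted by Benjamini-Hochberg was under 0.05. SE is the log2 fold change divided by the square root of F. The fit was tested on simulated counts. Promoters were taken from RefSeq on GRCm38.p6 and exon numbers from GENCODE vM21.

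The members and the 49 gene lists were chosen with earlier results of these data known. Genes named are 16 fixed anchors, up to 4 rises and 4 falls per list at 1 CPM or more and up to 2 not called, the 25 largest rises and falls at 5 CPM or more without overlap, and the 10 largest changes in CPM. Cdk1 and Ptprc, Itgam, Adgre1, Cd79a, Csf1r, Mrc1 and Epcam, Frat1, Trmt12 and Jund, and the members not called that are named to complete a count, were chosen outside this rule after their values were seen. So were Cdkn2a, Cdkn2b, Ccl19, Ccl21a and Ccl22, which were not tested. Alternatives were library totals, DESeq2 1.42.0, other filters, the 6 KPC libraries alone, a replicate block, a fold threshold, Rn18s-rs5 left out and each library left out. Same-numbered control and irradiated KPC replicates deviated together with correlations of -0.12, -0.02 and 0.02, so the numbers were not taken as pairs.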

Additional observations from a re-analysis of the deposited data

Results flagged for a closer look

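For the genes below the response to 8 Gy differed between KPC and MB49 cells by the interaction test, as log2 KPC change minus log2 MB49 change. KPC responded more for Ccn2 (7.81), Nos2 (6.45), Ccl2 (5.67), Car9 (5.57), Icam1 (4.87), Actg1 (4.66), Cd74 (3.16), Ccnb1 (3.08), Pfkl (3.08), Fos (2.52) and Mthfd1l (1.99). It responded less for Igfbp4 (-5.19), Twist2 (-4.56) and Ifi27 (-3.82). Of the 14, Ccl2, Icam1, Cd74, Actg1, Fos, Ccn2, Mthfd1l, Igfbp4, Twist2 and Ifi27 were called in opposite directions in the 2 lines. Groups of 3 libraries are too small for a test of single outlying libraries.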

How the results depend on the processing

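Without TMM, on library totals, Sox9 (log2 fold change -0.35, adjusted p = 0.0292), Ifngr1 (-0.24, adjusted p = 0.0423) and Cdkn1a (-0.35, adjusted p = 0.01) turned to the lower side, and Bax, Ccnd1, Eif2ak2, Sqle and Vegfa, not called above, were called lower. Mad2l1, not called above, was called higher by DESeq2, with the 6 KPC libraries alone, with a replicate block (adjusted p = 0.0373) and without each of KPC control replicate 1, KPC 8 Gy replicate 3, MB49 control replicate 3 and MB49 8 Gy replicate 3. Cd47 was also called without MB49 8 Gy replicate 3, Ccnd1 (lower) without the same library, Bax (lower) without KPC control replicate 3, and Rplp0 (higher) with the 6 KPC libraries alone. Tested against a fold change of 1.5, 2856 genes were higher and 2748 lower in KPC cells, and 1469 had a higher and 1690 a lower response in KPC than in MB49. Against that fold the calls of Trp53, Mdm2, Lmnb1, Cd276, Lif, Areg, Rela, Fn1, Rpl5, Gusb, Egln3, Nfe2l2 and Pias1 ended. Calls of Hmgb2, Timp1 and Hspa1a in other settings are not given here. Other settings kept the counts within 1.5 times: DESeq2 gave 4731 higher and 4305 lower, no filter 4794 and 4762, a stricter filter 4244 and 4382, the 6 KPC libraries alone 4519 and 4676, and without Rn18s-rs5 4492 and 4595. Leaving out 1 KPC library gave 4102 to 4457 higher and 4133 to 4411 lower. With a replicate block in the fit 4481 were higher and 4548 lower, and 8822 of the 9086 calls were shared. Not every library correlated best with its own number. Depth limits genes near 0 in the controls, whose fold changes rest on a few counts.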

Other observations

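Other lists held further changes. Of 20 tested TNF superfamily genes, receptors and adaptors 11 were higher and 6 lower (8 and 7 on library totals), with Tnfrsf9 (4-1BB) up 12.1-fold and Tnfrsf12a, the TWEAK receptor, down 3.73-fold. Of 33 vesicle and exosome formation genes 21 were higher and 6 lower (median 0.45), and on library totals 12 and 9 (median 0.07). Of 24 fatty acid genes 16 were higher and 3 lower (median 0.56), and on library totals 11 and 8 (median 0.18), with the carnitine transferase Cpt1a up 5.11-fold and the elongase Elovl6 down 3.84-fold. Of 31 matrix genes 12 were higher and 8 lower (11 and 11 on library totals), with the laminin chain Lama3 rising from 0.136 to 10.3 CPM and Lamb1 falling from 619 to 301 CPM. Of 22 genes listed as replication histones 1 was higher, 4 lower and 17 not called (8 lower on library totals), in libraries prepared by a stranded mRNA kit. The lower genes included H1f0, a linker histone gene not tied to replication, which fell from 1244 to 412 CPM.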
